A study of Mus musculus with 2 samples.

Results

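The 7 protein subunits of respiratory complex I that are encoded in mitochondrial DNA were examined in ribosome profiles of mouse brain. They were chosen by name, as the 7 gene symbols that start with mt-Nd, out of 45578 genes in the deposited table, a rule that uses no measured value. Ribosome profiling counts the short pieces of mRNA, called footprints, that ribosomes shield from nuclease. The study holds 1 group of 2 samples, replicates 1 and 2, each described as 1 control mouse brain at postnatal day 5, genotype Smn+/-; SMN2tg/0, strain FVB. The labels do not say that they are separate animals, so a difference between these samples may be technical, and p-values are set against counting error alone. Every animal therefore carried 1 working allele of Smn together with a transgene of human SMN2, and no untreated or wild-type group was analysed here. Polysomes, which are mRNAs loaded with several ribosomes, were collected from a cytoplasmic lysate on a sucrose gradient and digested with RNase I.

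Complex I, NADH:ubiquinone oxidoreductase, passes electrons from NADH to ubiquinone and pumps protons across the inner mitochondrial membrane. Its mitochondrially encoded subunits make the core of the membrane arm and are translated inside the organelle by mitochondrial ribosomes, while the other subunits are encoded in the nucleus, made in the cytosol and imported. Mitochondrial genes are transcribed as long polycistronic RNAs that are cut into single mRNAs, and mt-Nd6 is the protein gene among them that is read from the opposite DNA strand. The brain depends heavily on this pathway for its ATP.

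Each of the 7 genes had 1 annotated transcript, with no annotated untranslated region, so transcript and coding length were the same. Their positions on the mitochondrial genome, chromosome MT of the RefSeq annotation of GRCm38.p6, are given here because the deposited lengths of all 13 mitochondrial protein genes equalled those of RefSeq and because patch releases of GRCm38 leave the coordinates unchanged. The gene mt-Nd1 (ENSMUSG00000064341) lies at 2751 to 3707 and mt-Nd2 (ENSMUSG00000064345) at 3914 to 4951. Further along are mt-Nd3 (ENSMUSG00000064360) at 9459 to 9806, mt-Nd4l (ENSMUSG00000065947) at 9877 to 10173 and mt-Nd4 (ENSMUSG00000064363) at 10167 to 11544. The last are mt-Nd5 (ENSMUSG00000064367) at 11742 to 13565 and mt-Nd6 (ENSMUSG00000064368) at 13552 to 14070. The ends of mt-Nd4l and mt-Nd4 overlap by 7 nucleotides and those of mt-Nd5 and mt-Nd6 by 14 nucleotides. Footprints in these overlaps cannot be given to 1 gene, and the use of strand in the counting is not given in the sources used here, so sense and antisense RNA at mt-Nd6 cannot be told apart.

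Replicate 1 held 1866831 counted footprints and replicate 2 held 5261878, so replicate 2 was 2.82 times as deep and its values carry the smaller counting error. A count of 0 would allow a level of up to 1.61 CPM (counts per 1000000 footprints of the library) in replicate 1 and of 0.570 CPM in replicate 2, and all 7 genes lay above these floors. Smn1, the gene disrupted on 1 allele, had 71 and 253 footprints. Marker genes of brain cells were present: the 5 neuronal markers summed to 4761 and 3698 CPM in replicates 1 and 2, the 4 astrocyte markers to 1310 and 1267 CPM, and 3 oligodendrocyte markers (Mbp, Cnp and Mog) to 446 and 653 CPM. The 5 red cell markers summed to 2484 and 1702 CPM, the 5 muscle markers to 78.7 and 62.3 CPM and the 5 liver markers to 583 and 278 CPM, of which Ttr held 582 and 277 CPM, while Alb and Fgb had no footprint in either library. In whole tissue, fewer cells of a type and less RNA per cell cannot be told apart.

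Together the 7 mRNAs took 0.118% ± 0.0381 of all footprints (SD, n = 2). The share was 0.0910% in replicate 1 (with 0.0867 to 0.0954 as the Clopper-Pearson 95% interval). It was 0.145% in replicate 2 (0.142 to 0.148). This was higher in replicate 2 by more than counting error. Intervals here cover counting error only and treat each counted footprint as independent. Copies made by PCR are not independent molecules, so the intervals are too narrow if such copies were counted.

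Levels of different genes were compared as footprint density, the CPM value per kilobase of transcript. For a gene with several transcripts the densities of all its transcripts were summed, non-coding ones included. The subunits that resemble sodium-proton antiporters and line the proton channels are ND2, ND4 and ND5. The gene for the outermost of them, mt-Nd5, had 653 footprints in replicate 1 and 3059 in replicate 2, more than any other member in both libraries. Its density was 192 in replicate 1 (95% interval 177 to 207) and 319 in replicate 2 (308 to 330), a mean of 255 ± 89.8 (SD, n = 2). It held 38.4% and 40.1% of the footprints of the 7 genes on 28.7% of their summed length.

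The other antiporter-like subunits had lower densities. For mt-Nd2 there were 227 and 1051 footprints, which gave densities of 117 (102 to 133) and 192 (181 to 204). For mt-Nd4 there were 246 and 1288 footprints, with densities of 95.6 (84.1 to 108) and 178 (168 to 188). Both lay below mt-Nd5 in each library, and both were lower in replicate 1 than in replicate 2 with intervals that did not overlap.

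ND1 forms the junction with the peripheral arm, where ubiquinone binds. Its gene, mt-Nd1, had 123 and 711 footprints, and densities of 68.8 (57.2 to 82.1) and 141 (131 to 152). The intervals did not overlap, and the second value was the higher.

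The small subunits ND3, ND4L and ND6 pack between the junction and the antiporter-like subunits. At the lower end was mt-Nd3, with 27 and 123 footprints and densities of 41.6 (27.4 to 60.5) and 67.2 (55.8 to 80.1). The next-door gene mt-Nd4l had 100 and 392 footprints, and densities of 180 (147 to 219) and 251 (227 to 277). Despite their like size, these neighbours differed in density in both libraries, with mt-Nd4l the higher.

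The highest density of the 7 belonged to mt-Nd6, which had 323 and 999 footprints. Its densities were 333 (298 to 372) and 366 (343 to 389), with a mean of 350 ± 22.9 (SD, n = 2). For mt-Nd6 the intervals of the replicates overlapped.

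The order of the 7 densities was the same in both replicates: mt-Nd6, mt-Nd5, mt-Nd4l, mt-Nd2, mt-Nd4, mt-Nd1 and mt-Nd3. The highest exceeded the lowest 8.02-fold in replicate 1 and 5.45-fold in replicate 2. Members were compared in pairs within each library by a two-sided exact conditional binomial test given their lengths, with Benjamini-Hochberg adjustment over all 42 tests. Of the 21 pairs, 20 differed in replicate 1, 20 in replicate 2 and 19 in both, always in the same direction. This test covers counting error in 1 library at a time.

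The exceptions were neighbours in the order. In replicate 1 the density of mt-Nd4l was 0.940 times that of mt-Nd5 (95% interval 0.754 to 1.16), and in replicate 2 that of mt-Nd2 was 1.08 times that of mt-Nd4 (0.998 to 1.18). Set against the spread between the replicates, fewer steps stand out: the range of mt-Nd4 over the replicates, 95.6 to 178, overlapped those of mt-Nd1 and mt-Nd2, and the range of mt-Nd4l, 180 to 251, overlapped those of mt-Nd2 and mt-Nd5. The ranges of mt-Nd6 and mt-Nd5 did not overlap, and neither did those of mt-Nd3 and mt-Nd1.

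**Figure D1:**
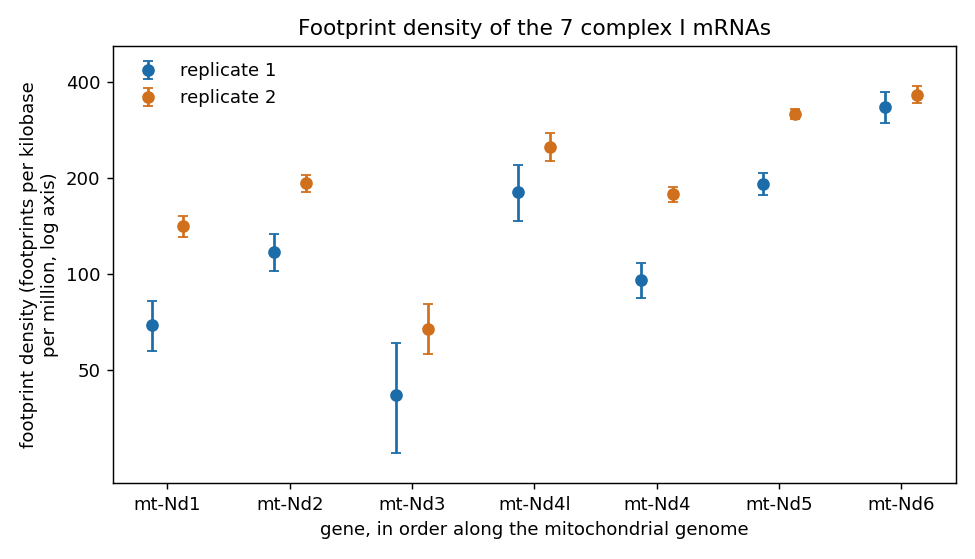
Footprint density (CPM per kilobase of transcript, log axis) of each of the 7 genes, in order along the mitochondrial genome; points are the 2 replicates and bars are Clopper-Pearson 95% intervals of the counts. The densities run from 41.6 for mt-Nd3 in replicate 1 to 366 for mt-Nd6 in replicate 2, and mt-Nd6 is the gene whose replicates lie closest on this axis.

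The genes mt-Nd4l and mt-Nd4 are read from 1 shared mRNA, as are mt-Atp8 and mt-Atp6 of the ATP synthase. In the counts as deposited, the upstream reading frame had the higher density in both cases. The density of mt-Nd4l was 1.89 times that of mt-Nd4 in replicate 1 (1.48 to 2.39) and 1.41 times in replicate 2 (1.26 to 1.58). For mt-Atp8 over mt-Atp6 the ratio was 2.76 (1.87 to 4.04) and 2.00 (1.69 to 2.36). The frames of mt-Atp8 and mt-Atp6 overlap by 43 nucleotides. A nuclear pseudogene paired here with mt-Atp6, Gm10925, had 51 and 413 footprints beside the 63 and 387 of mt-Atp6. With those counts added to mt-Atp6, mt-Atp8 would not have the higher density in replicate 2.

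These levels depend on how fragments that match nuclear copies of mitochondrial DNA were assigned. Of 8 transcripts listed as nuclear copies, 7 had footprints. The pseudogene Gm28438 is 345 nucleotides long against 348 for mt-Nd3, and no other mitochondrial mRNA is within 3 nucleotides of it in length. It had 31 and 126 footprints beside the 27 and 123 of mt-Nd3. The pseudogene Gm10222 is 294 nucleotides long against 297 for mt-Nd4l, and had 92 and 395 footprints beside the 100 and 392 of mt-Nd4l. Gene and pseudogene thus carried near-equal counts in each library.

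Of the footprints of the pair, mt-Nd3 held 46.6% in replicate 1 (95% interval 33.3 to 60.1) and 49.4% in replicate 2 (43.03 to 55.8). The share of mt-Nd4l in its pair was 52.1% (44.8 to 59.3) and 49.8% (46.3 to 53.4). In RefSeq, Gm10222 lies on chromosome 1 near Gm10925, which has mt-Atp6 among its synonyms. The span from the start of Gm10222 to the end of Gm10925 is 2248 nucleotides, and that from the start of mt-Atp6 to the end of mt-Nd4l is 2247 nucleotides. Another pseudogene, Gm28439, is 876 nucleotides long and had 130 and 758 footprints. Its pairing with part of mt-Nd4 rests on general knowledge of this chromosome 1 insertion and was not checked by sequence.

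With the counts of the copies added, the density of mt-Nd3 became 113 ± 33.02, that of mt-Nd4l 425 ± 111 and that of mt-Nd4 214 ± 96.2 (SD, n = 2). In this setting, chosen after the data were seen, mt-Nd4l had the highest density of the 7 in both replicates, at 346 and 504, and mt-Nd6 the next. The lowest was then mt-Nd1 in replicate 1 and mt-Nd3 in replicate 2. The place of mt-Nd3 at the bottom, and that of mt-Nd6 at the top, therefore hold only for the counts as deposited. Whether fragments of mt-Nd1, mt-Nd2, mt-Nd5 or mt-Nd6 were divided with nuclear copies was not tested.

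**Figure D2:**
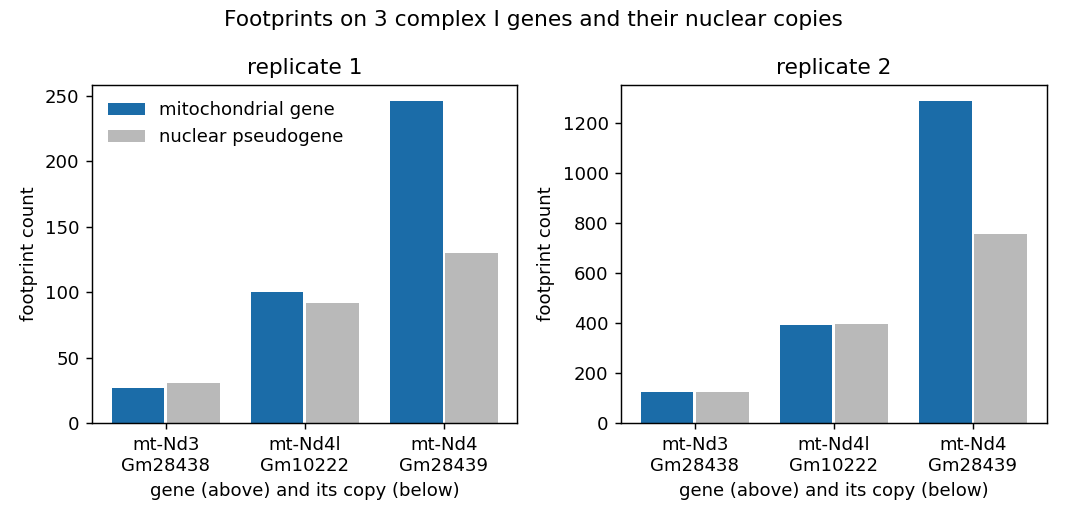
Footprint counts of 3 complex I genes (blue bars) and of the nuclear pseudogene paired with each (grey bars), with replicate 1 on the left and replicate 2 on the right on separate vertical scales that start at 0. For mt-Nd3 and mt-Nd4l the bars of gene and pseudogene are near-equal, 27 and 31 or 100 and 92 footprints in replicate 1.

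The replicates were then compared gene by gene. The study has no second group, so the comparison asks only how far the libraries gave the same level, by a two-sided exact binomial test of the paired counts against the ratio of library sizes scaled by TMM (trimmed mean of M values). Genes with an adjusted p under 0.05 were called. All 7 genes had the mean count of 10 that the test required, and 4 were called, all higher in replicate 2. Over the 16427 genes tested, 5.95% were called higher in replicate 2 and 11.5% lower, or 17.4% in either direction.

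The largest ratio was that of mt-Nd1, at 0.91 on the log2 scale (95% interval 0.63 to 1.20), and its adjusted p by the exact binomial test was 3.02e-10. For mt-Nd4 the log2 ratio was 0.77 (0.57 to 0.97), with an adjusted p of 5.19e-14 in the same exact test. The log2 ratio of mt-Nd5 was 0.61 (0.48 to 0.73) and that of mt-Nd2 was 0.59 (0.38 to 0.80), with exact binomial adjusted p-values of 3.43e-22 and 2.14e-07. Footprint levels of the genes for the antiporter-like subunits and ND1 were thus higher in the second library.

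Of the small subunits none was called, though the intervals of mt-Nd3 and mt-Nd4l overlapped those of mt-Nd1, mt-Nd2, mt-Nd4 and mt-Nd5. The log2 ratio of mt-Nd3 was 0.55 (-0.04 to 1.22) (adjusted p = 0.229, exact binomial test), where the low count limits what can be detected. That of mt-Nd4l was 0.35 (0.03 to 0.68) (adjusted p = 0.131, exact binomial test), and mt-Nd4l was called with library totals, at 0.47 and an adjusted p of 0.0203, or with its nuclear copy added, at 0.41 and 0.00300. For mt-Nd6 the log2 ratio was 0.01 (-0.17 to 0.19) with TMM and 0.13 with library totals, and neither scaling called it. The interval of mt-Nd6 lay below those of mt-Nd1, mt-Nd2, mt-Nd4 and mt-Nd5 and overlapped those of mt-Nd3 and mt-Nd4l.

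The share of mt-Nd6 in the footprints of the 7 genes was 19.01% in replicate 1 (95% interval 17.2 to 20.96) and 13.1% in replicate 2 (12.4 to 13.9). The share of mt-Nd1 was 7.24% (6.05 to 8.58) and 9.33% (8.68 to 10.002). The other 5 genes had shares whose intervals overlapped between the libraries.

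The median log2 ratio of the 7 genes was 0.59, where that of all genes tested was 0.01. With library totals the median of all genes was 0.13 and that of the 7 genes 0.71, and the 7 genes were above 0 under both scalings. Footprint density moves with this ratio: among the 3008 other genes with a density within the range of the 7, the median log2 ratio was -0.12 and 9.38% were called higher. So does the number of annotated transcripts. Among the 3399 other protein-coding genes tested that have 1 transcript, as the 7 genes do, the median log2 ratio was -0.29, and 16 (0.471%) were called higher and 25.7% lower. With library totals 5 of the 7 were called higher, where 19.0% of all genes were called, 11.5% higher and 7.47% lower. When the spread was taken from edgeR's exact test with a common dispersion estimated from the same 2 libraries, 0 of the 7 were called, and 2 had an unadjusted p under 0.05. That test called 11 of the 16427 genes, or 0.0670%, so the count of 0 does not set the 7 genes apart.

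Markers of cell types moved between the libraries as well. Of the neuronal markers 4 of 5 were called lower in replicate 2, as were 1 of 4 astrocyte markers and 4 of 5 red cell markers. Of the 3 oligodendrocyte markers 1 was called, Mbp, which was higher, at a log2 ratio of 0.70. Their part in the ratios of the complex I genes was not tested.

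**Figure D3:**
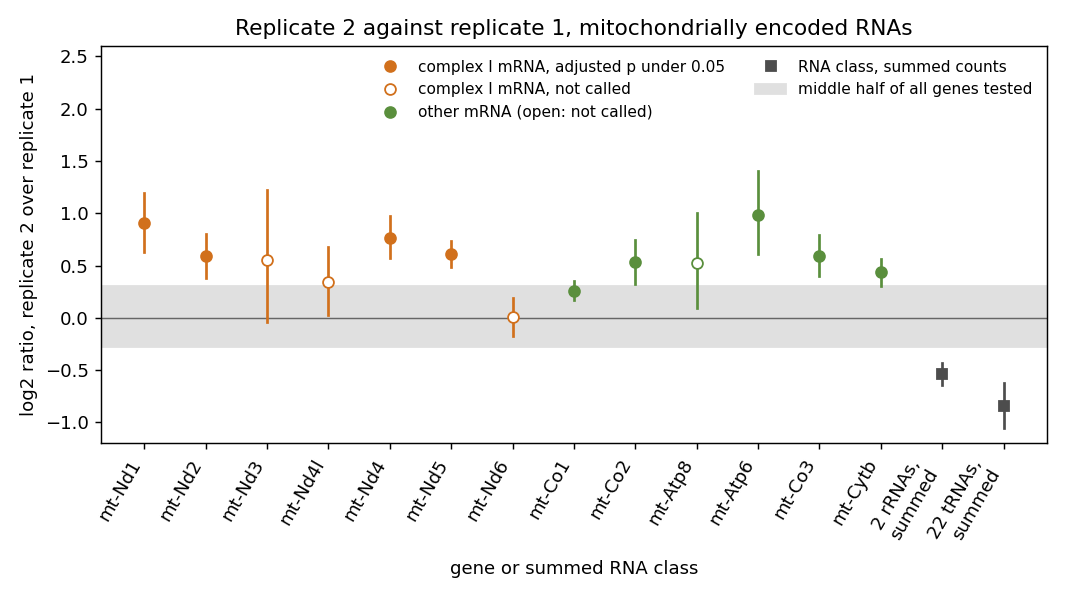
Log2 ratio of replicate 2 over replicate 1 (TMM scaling) for the complex I mRNAs (orange), the other mitochondrial mRNAs (green) and the summed mitochondrial rRNAs and tRNAs (dark squares); vertical lines are 95% intervals of the counts, open circles mark genes not called, and the grey band spans the quartiles of all genes tested. The value of mt-Nd6 is 0.01, against 0.59 to 0.91 for the 4 called complex I genes, and the rRNAs and tRNAs lie below 0.

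The remaining mitochondrial mRNAs encode cytochrome b of complex III, the catalytic core of complex IV and parts of the ATP synthase. Of these 6, 5 were called higher in replicate 2, and their median log2 ratio was 0.53. The 2 mitochondrial rRNAs, which are not translated, went the other way: mt-Rnr1 had a log2 ratio of -0.61 and mt-Rnr2 one of -0.47, and both were called lower. Their mean densities, 238 ± 55.8 and 174 ± 29.5, lay inside the range of the complex I mRNAs, so fragments of mitochondrial rRNA were present at like densities. Of 22 mitochondrial tRNAs, 12 were tested and 6 called lower, or 3 with library totals, and their summed log2 ratio was -0.84 (-1.05 to -0.62). The part of fragments from RNA not under translation in the counts of the 7 mRNAs was not tested.

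Within the 13 mitochondrial mRNAs, complex I took 40.04% of the footprints in replicate 1 (38.6 to 41.5) and 42.5% in replicate 2 (41.8 to 43.3), on 55.8% of the summed length. The share differed between the libraries in a two-sided Fisher's exact test of the counts, with p = 0.00310. Median density of the 7 genes was 117 and 192, against 180 and 290 for the other 6, a ratio of 0.652 in replicate 1 and 0.665 in replicate 2. The complex I genes thus had the lower median in both libraries. The highest density of the 13 was that of mt-Co1, at 453 and 593, followed by mt-Nd6 and mt-Cytb, which changed places between the replicates. The lowest was mt-Nd3 and the next mt-Atp6, at 49.6 and 108. With the counts of paired nuclear copies added on both sides, the ratio of the medians was 0.463 in replicate 1 and 0.556 in replicate 2.

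The nuclear subunits of complex I come from a fixed list of 36 genes, which contains the 7 core subunits of the peripheral arm and 29 accessory subunits. Their direction between the replicates differed from that of the mitochondrial subunits for most accessory subunits, but not for most core subunits. Of the 36, 3 were called higher in replicate 2 and 19 lower, with a median log2 ratio of -0.35. Of the core subunits, which carry the flavin and the iron-sulfur clusters, 2 were called higher and 1 lower, or 4 higher and 0 lower with library totals. Their median log2 ratio was 0.15, and 5 of the 7 were above 0. Ndufs1 had a log2 ratio of 0.37 with 319 and 1267 footprints, and Ndufs8 one of -0.46 with 172 and 384 footprints. Of the accessory subunits 1 was called higher and 18 lower, with a median log2 ratio of -0.47.

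The 11 nuclear subunits with 1 annotated transcript were all called lower, at log2 ratios from -0.78 to -0.46, while of the 25 with several transcripts 3 were called higher and 8 lower. The number of transcripts thus moved with the ratio among the nuclear subunits too. Of the 9905 protein-coding genes tested with several transcripts, 9.13% were called higher and 8.48% lower, against 12.0% and 32.0% of these 25. Of the 3399 with 1 transcript, 25.7% were called lower, against all 11 here. The part of transcript number in the direction of the nuclear subunits was not tested. Using the transcript with the highest count for each gene left 0 called higher and 14 called lower among the 36 in the exact binomial test, in which 20 of the 36 had an unadjusted p under 0.05. Over all 15353 genes tested in that setting, 1.65% were called higher and 7.75% lower.

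Footprint density of the mitochondrial subunits was compared with that of the nuclear ones, which are read by other ribosomes. In replicate 1 mt-Nd3 lay below all 36 nuclear subunits, and 4 nuclear subunits lay above mt-Nd6. In replicate 2 there were 2 nuclear subunits below mt-Nd3 and 2 above mt-Nd6. The ratio of the median of the 7 mitochondrial genes to that of the 36 nuclear genes was 0.651 in replicate 1 and 0.995 in replicate 2, a mean of 0.823 ± 0.243 (SD, n = 2). The difference from equality was within the spread between replicates. Among core subunits the highest mean densities were those of Ndufv1, which binds NADH, at 278 ± 27.5, and Ndufs7 at 237 ± 0.302, and the lowest were those of Ndufs8 at 85.7 ± 14.1 and Ndufs1 at 148 ± 32.1. Among accessory subunits they were Ndufb8 at 403 ± 24.1 and Ndufa3 at 391 ± 7.17, against Ndufa11 at 39.3 ± 9.67 and Ndufs4 at 52.8 ± 15.2. Nuclear transcripts have untranslated regions and the mitochondrial ones do not. Counts of coding transcripts per kilobase of coding length gave ratios of 0.540 and 0.9501. Any footprints in untranslated regions stay in these counts. On that measure part of the order above reversed, with means of 130 for Ndufs7 and 195 for Ndufs1, and of 228 for Ndufa3 and 242 for Ndufa11. Ndufv1, at 212, stayed above Ndufs8, at 129, and Ndufb8, at 267, above Ndufs4, at 153. The ratio of mitochondrial to nuclear medians depended on how a nuclear gene's transcripts were combined: with the highest transcript alone it was 1.72 and 3.05.

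**Figure D4:**
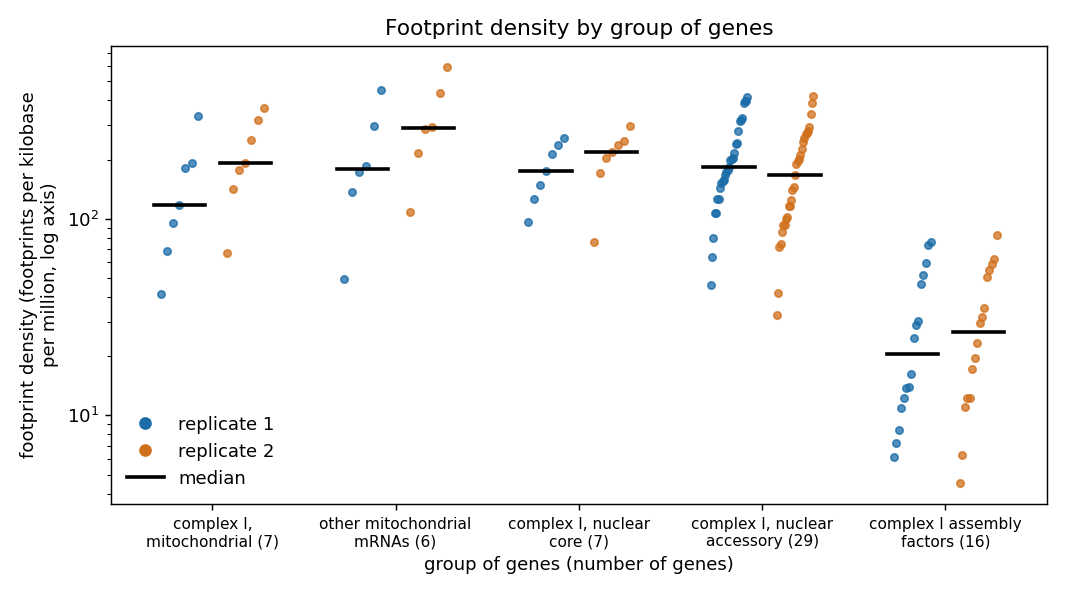
Footprint density (CPM per kilobase of transcript, log axis) of every gene in 5 groups, with replicate 1 in blue, replicate 2 in orange and the median as a black line; points within a group are spread sideways in order of value. The medians of the mitochondrial complex I genes are 117 and 192, and most assembly factors lie lower.

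Factors that build complex I or express mitochondrial genes had far lower median footprint densities than the complex I subunits. Their medians lay slightly above the median of 17.0 over all 16427 genes tested. The groups overlapped, since some factors, Acad9 and Slirp among them, lay above the mean density of 54.4 of mt-Nd3. The 16 assembly factors had a median density of 24.2, with the highest values for Acad9, at 79.4 ± 4.296, and Tmem70, at 68.1 ± 7.60 (SD, n = 2). Their lowest were Tmem186 at 5.88 ± 1.93 and Nubpl at 6.21 ± 0.123. Of these genes 1, Tmem186, was called lower in replicate 2. With library totals Tmem186 was not called (log2 ratio -0.66) and Foxred1 was called higher (0.66). The 16 factors of mitochondrial transcription and translation had a median density of 19.7. They were led by Slirp, a partner of the mRNA-stabilising protein LRPPRC, at 82.0 ± 13.1 and the elongation factor Tufm at 66.8 ± 0.867, and the lowest were Mtrf1l at 3.31 ± 0.784 and Mtfmt at 9.10 ± 2.08. None of the 16 was called by the exact binomial test with TMM, at log2 ratios between -0.35 and 0.74, and 1 was called with library totals.

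The protein-coding genes outside the mitochondrial genome with densities most like the median of the 7 were sought by distance over the log2 densities of the 2 replicates. Among 13289 candidates they were Sepp1 at 121 and 189, Psmd11 at 124 and 197, and Commd3 at 109 and 189, at distances of 0.06, 0.09 and 0.11. With 2 samples this likeness is a description of level only.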

How the data were processed

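The deposited table holds whole-number counts of ribosome-protected fragments per transcript, 1 column per replicate, with no normalization, and annotated lengths in nucleotides, per the file headers. The submitters' processing notes name Trimmomatic 0.36, Bowtie2 2.2.6, SAMtools and the build GRCm38.p4; the annotation release, duplicates and the treatment of fragments with several matches are not given in the sources used here. Transcript pairs of 1 gene with identical lengths had a mean squared difference over their sum of 1.03 (91 values), near the 1 of independent counts, so transcript counts were summed per gene. Scaling used edgeR 4.0.16 (TMM factors 0.957 and 1.04). Tests and intervals used SciPy 1.17.1, with Benjamini-Hochberg adjustment over the genes that passed a mean count minimum of 10. The binomial test between replicates was run on simulated counts that held counting error alone, and the adjustment on simulated p-values. Intervals and the other tests were not run on simulated data. Log2 ratios carry a prior of 0.5 CPM. A quasi-likelihood fit was not possible with 1 group. P-values measure counting noise between 2 libraries.

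Alternatives were library totals, size factors from DESeq2 1.42.0, edgeR's exact test, other filters, priors, lengths and transcripts, single replicates and nuclear copies. This set of genes and the lists were taken up with earlier results of these data known. Named genes were all members, the other mitochondrial mRNAs, the 2 highest and 2 lowest in density of each complex I and mitochondrial factor list, the 3 most alike and Smn1; the rRNAs, marker genes and Foxred1 were named beside the counts they belong to. Genes were named by the file; positions came from RefSeq GRCm38.p6. Matched RNA levels, fragment lengths and sequences were not analysed here. Of the listed oligodendrocyte markers 1 is not reported here.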

Additional observations from a re-analysis of the deposited data

How the results depend on the processing

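Of 52 recomputed log2 ratios of the 7 genes, none changed sign and 3 changed side of the threshold, all for mt-Nd4l, which was called at 0.47 with library totals, at 0.41 with nuclear copies added and at 0.54 with the trend with density removed. The last 2 settings were chosen after the data were seen. Another prior could change neither sign nor side, because it is added to both libraries alike and the test does not use it. With the highest transcript the counts of the 7 genes stayed the same, and only the scaling and the genes tested changed. The number of complex I genes called, 4, was 4 or 5 elsewhere and 0 with edgeR's exact test. That test also called 0 of the 36 nuclear subunits lower and 0 higher, against 11 of all 16427 genes, and 1 of the 36 had an unadjusted p under 0.05, and its dispersion came from the libraries it compared. Nuclear subunits called higher numbered 3, but 6 with library totals, 7 with the trend removed and 0 with the highest transcript. With copies added, densities became 113 for mt-Nd3, 425 for mt-Nd4l and 214 for mt-Nd4. Single replicates gave the ranges printed for each gene. Coding length could move no density, since it equals transcript length for the 7 genes. Transcript length less 30 nucleotides moved none by more than the spread between replicates. The share of the library was 0.157% over coding transcripts alone. The share of mitochondrial mRNA footprints was 32.5% with pseudogene counts in the total and 37.7% with copies added to their genes. The density ratio to nuclear subunits, 0.823, was 2.38 with the highest transcript, 1.11 pooled and 1.14 with copies added, and that to the other mitochondrial mRNAs, 0.658, was 0.558 pooled and 0.510 with copies added. No paired analysis was possible because the study has 1 group. Replicate 1 limits precision, with 27 footprints on mt-Nd3.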

Other observations

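A further 3 pseudogenes with consecutive names, not on the list of nuclear copies and named after their values were seen, also had footprints. Gm13340, 1545 nucleotides long, had 500 and 2144 footprints in replicates 1 and 2, at densities of 173 and 264 CPM per kilobase. Gm13341, 672 nucleotides long, had 82 and 494 footprints, and Gm13339, 510 nucleotides long, had 13 and 133. Their log2 ratios of replicate 2 over replicate 1 were 0.48, 0.96 and 1.67. Which genes they copy was not tested.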
